A study of Mus musculus with 2 samples.

Results

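The corticotropin-releasing hormone family is a stress peptide system of 5 genes here: the ligands Crh and Ucn, the binding protein Crhbp, and the receptors Crhr1 and Crhr2. The members were taken by gene symbol from the count tables, where all 5 are among 23912 genes. Crh and urocortin are secreted peptides that act on class B G protein-coupled receptors, which couple mainly to Gs and raise cyclic AMP. CRH-R1 binds both peptides, CRH-R2 prefers the urocortins, and CRH-binding protein captures either ligand before it reaches a receptor. In the pons, Crh is best known from Barrington's nucleus, whose neurons project to the lumbosacral cord.

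The samples are nuclei of descending hindbrain neurons, marked from the lumbar spinal cord, from TRAP2 mice aged 8 to 12 weeks, a line in which active neurons can be marked genetically within a time window. The retrograde virus AAV-retro-H2B-GFP, which puts a green fluorescent protein in the nucleus, had been placed in the lumbar cord, and nuclei were sorted from hindbrain between -7.3 and -5.2 mm from bregma. One library came from mice with the treatment labelled SNI with brush and the other from mice given a hot water bath; both carried the same line and virus. Hindbrains of one treatment were pooled into 1 library, so neither treatment has a replicate, and the labels name no untreated group. Differences below therefore compare 2 libraries, no test between treatments was made, and every interval is an exact 95% interval that covers counting error only.

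The libraries gave 270 SNI with brush and 422 hot water bath neuronal nuclei, with medians of 33205 and 36886 counted transcripts (unique molecular identifiers, UMIs) per nucleus and no barcode in common. Nuclei were classed by their own transmitter transcripts. Glutamatergic nuclei had at least 75% of 3 or more such UMIs from vesicular glutamate transporter genes, and inhibitory nuclei had at most 25%, the others coming from Slc32a1, Slc6a5, Gad1 and Gad2. Tph2 nuclei had at least 10 UMIs of Tph2, the serotonin synthesis enzyme. This gave 122 SNI with brush and 251 hot water bath glutamatergic nuclei, 104 and 60 inhibitory nuclei, and 3 and 26 Tph2 nuclei, while 41.3 to 53.5% of SNI with brush nuclei and 31.2 to 40.6% of hot water bath nuclei held a Y-linked UMI. The SNI with brush library also held 16 nuclei led by liver genes, which were left out, and its neuronal nuclei carried 344 UMIs of liver genes (31.9 per 1000000 UMIs, written CPM below), against 4 (0.248 CPM) in the hot water bath library. Other marker lists and mitochondrial UMIs moved with the libraries too. The 4 choroid plexus genes summed to 238 CPM in SNI with brush and 12.1 CPM in hot water bath neuronal nuclei (Folr1 at 0 in hot water bath nuclei), 5 oligodendrocyte genes to 176 and 74.9 CPM, 4 astrocyte genes to 18.1 and 5.69 CPM, and 4 microglia genes to 73.8 and 74.7 CPM, while mitochondrial UMIs were 0.514% and 0.148%. Their part in the ratios between libraries was not tested, apart from the values given for nuclei low in liver or mitochondrial UMIs.

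The ligand genes lie on different chromosomes and share the end of their coding sequence, the part that encodes the mature peptide. Crh spans chr3:19693401-19695396 and Ucn chr5:31138063-31138829, both on the minus strand of mm10, in GENCODE vM21. Their last 43 codons before the stop are shown 5′ to 3′ because this is the stretch that makes both products ligands of the same receptors; capitals mark bases identical at the same position counted back from the stop.
Crh: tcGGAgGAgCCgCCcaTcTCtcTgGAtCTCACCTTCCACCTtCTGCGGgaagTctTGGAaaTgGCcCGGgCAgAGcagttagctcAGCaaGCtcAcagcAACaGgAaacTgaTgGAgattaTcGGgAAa
Ucn: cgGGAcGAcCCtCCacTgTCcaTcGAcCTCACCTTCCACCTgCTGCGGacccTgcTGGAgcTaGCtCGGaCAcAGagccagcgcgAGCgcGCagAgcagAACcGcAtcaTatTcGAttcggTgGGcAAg
Of these 129 bases, 70 (54.3%) were identical. The longest run shared by the annotated transcripts of Crh and Ucn was 14 bases, and that of the receptor genes was 24 bases. Crhbp lies at chr13:95431371-95444924 on the minus strand, Crhr1 at chr11:104132855-104175523 on the plus strand and Crhr2 at chr6:55090049-55133016 on the minus strand. No other annotated gene overlaps any of the 5.

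Crh, the ligand, was a glutamatergic transcript in both libraries. It had 134 UMIs in SNI with brush glutamatergic nuclei (23.8 CPM, interval 20 to 28.2) and 216 in hot water bath glutamatergic nuclei (21.4 CPM, 18.7 to 24.5). Inhibitory nuclei held 1 UMI in the SNI with brush library (0.271 CPM) and 5 in the hot water bath library (2.33 CPM). The glutamatergic over inhibitory log2 ratio was 5.88 (3.95 to 11.77) in the SNI with brush library and 3.07 (1.96 to 4.84) in the hot water bath library. Among all genes with enough UMIs, 5.99% were at least 1.5-fold higher in glutamatergic nuclei of the SNI with brush library, and 9.98% in the hot water bath library. The hot water bath ratio was smaller under stricter class rules, 0.76 (-0.69 to 2.66) when nuclei needed 10 transmitter UMIs and 90% or 10% of one kind.

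A few nuclei held much of the Crh in the SNI with brush library, whereas the hot water bath UMIs were spread over more nuclei. The median in nuclei with a Crh UMI was 2 UMIs in both libraries. The 3 highest glutamatergic nuclei held 51, 26 and 22 UMIs in the SNI with brush library and 35, 21 and 10 in the hot water bath library. Nuclei at the top 3 places held 67.8% of all SNI with brush Crh UMIs and 25.1% of all hot water bath ones. Crh was detected in 14 of 122 SNI with brush glutamatergic nuclei (11.5%, 6.42 to 18.5%), against 54 of 251 hot water bath ones (21.5%, 16.6 to 27.1%). After thinning each nucleus to 9000 UMIs the shares were 7.38% (3.43 to 13.5%) and 10.8% (7.21 to 15.3%), and the intervals overlapped. Free RNA in droplets can give single UMIs, so the shares are to be read against the 26 hot water bath Tph2 nuclei (median 40064 UMIs), none of which held a Crh UMI. The exact interval of that count reaches a share of 13.2%.

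Summed over all neuronal nuclei, Crh had 146 UMIs (13.5 CPM) in SNI with brush nuclei and 263 (16.3 CPM) in hot water bath nuclei. The log2 ratio, SNI with brush over hot water bath, was -0.26 (-0.57 to 0.03), while the median over all genes was 0.23; past a 1.5-fold limit, 30.0% of genes were higher in SNI with brush nuclei and 8.37% lower. Scaled by size factors in place of total UMIs it was -0.49 (-0.79 to -0.20), and without the nucleus with the most Crh UMIs in each library -0.67 (-1.04 to -0.33). Within glutamatergic nuclei the ratio was 0.15 (-0.17 to 0.47), and its sign depended on which nuclei were taken. It was -0.27 (-0.67 to 0.10) without the highest nucleus of each library and -0.30 (-0.90 to 0.29) in nuclei with a Y-linked UMI. It was 1.27 (0.40 to 2.26) when nuclei needed 10 transmitter UMIs and 90% of one kind, and 1.19 (0.88 to 1.5) with classes taken by cluster.

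**Figure D1:**
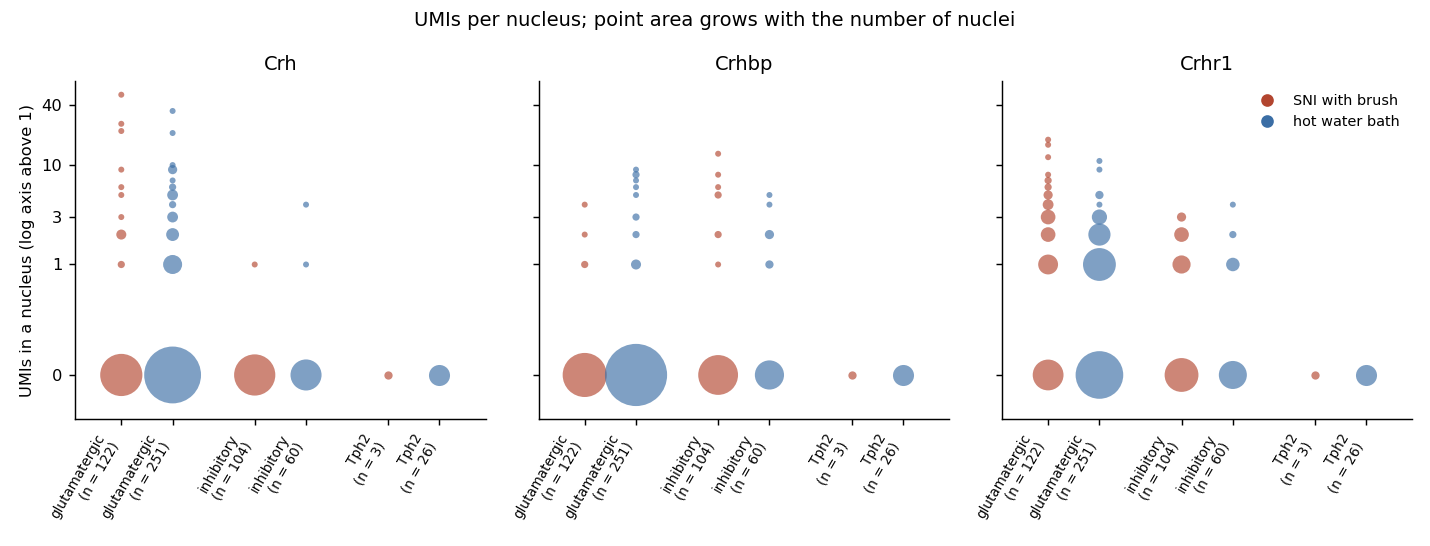
UMIs of Crh, Crhbp and Crhr1 in single nuclei (vertical axis, logarithmic above 1) of glutamatergic, inhibitory and Tph2 nuclei, with SNI with brush left of the hot water bath in each pair and point area growing with the number of nuclei. Crh reached 51 UMIs in a SNI with brush glutamatergic nucleus, Crhbp reached 13 in a SNI with brush inhibitory nucleus, and all 3 genes were at 0 in every Tph2 nucleus.

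Crh UMIs were concentrated in 3 of 18 clusters that were built without the 5 genes. These clusters were led by Creb5 and Gucy2f, by Prdm6, Calcr and Lhx9, and by Spx and Prdm6. Together they held 11 SNI with brush nuclei, 8 of them with Crh (72.7%, 39.0 to 94.0%), and 107 hot water bath nuclei, 62 of them with Crh (57.9%, 48.0 to 67.4%). Their share of all Crh UMIs was 80.8% in the SNI with brush library and 88.2% in the hot water bath library. The level of Crh in these clusters was 259 CPM (215 to 311) in SNI with brush and 60.9 CPM (53.3 to 69.3) in hot water bath nuclei. Of the 118 SNI with brush UMIs there, 51 lay in 1 nucleus. The sum over all neuronal nuclei thus joined a higher level with fewer nuclei of these clusters in the SNI with brush library. Elsewhere Crh was found in 11 of 259 SNI with brush nuclei (4.25%, 2.14 to 7.47%) and 11 of 315 hot water bath nuclei (3.49%, 1.76 to 6.16%). The cluster led by Slc17a7 had Crh in 5 of 20 SNI with brush nuclei and 0 of 7 hot water bath nuclei. All 3 glutamatergic nuclei with 10 or more Crh UMIs in each library lay in the 3 clusters named first. Of glutamatergic nuclei with any Crh UMI, 6 of 14 SNI with brush and 48 of 54 hot water bath ones lay in those 3. The clusters were picked out for Crh after its values were seen, so these shares describe where the gene lies and test nothing.

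**Figure D2:**
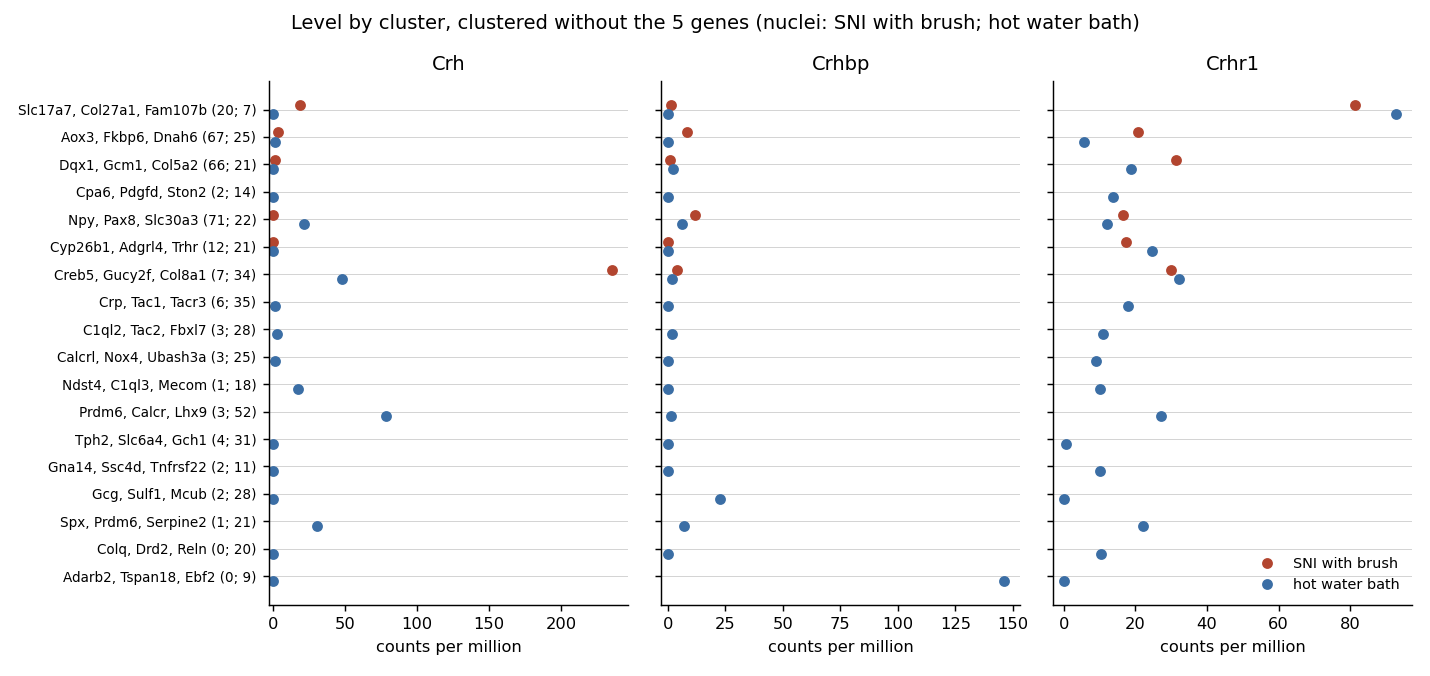
Level of Crh, Crhbp and Crhr1 in CPM (horizontal axes) in clusters made without the 5 genes, named by their 3 leading genes with the number of SNI with brush and hot water bath nuclei; groups under 7 nuclei have no point. Crh stood at 235 CPM in 7 SNI with brush nuclei of the Creb5 cluster and at 47.7 CPM in its 34 hot water bath nuclei. Crhbp stood at 146 CPM in the Adarb2 cluster of 9 hot water bath nuclei, and Crhr1 at 81.3 and 92.7 CPM in the Slc17a7 cluster.

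Other genes were compared between glutamatergic nuclei rich in Crh and those without it. The 3 nuclei per library with 10 or more Crh UMIs were set against the glutamatergic nuclei with none, 108 in the SNI with brush library and 197 in the hot water bath library, and genes were ranked by the smaller of the log2 ratios. Of 10328 genes with at least 50 UMIs in glutamatergic nuclei of each library, 9.69% were at least 1.5-fold higher in both libraries and 6.99% at least 1.5-fold lower. The genes at the ends of the ranking are given as values. The highest was Myo3b, an unconventional myosin, at 199 CPM in Crh-rich and 10.4 CPM in Crh-free SNI with brush nuclei, and at 363 and 17.8 CPM in hot water bath nuclei. Calcr, the calcitonin receptor, stood at 240 CPM in Crh-rich against 16.9 CPM in Crh-free SNI with brush nuclei, and at 246 against 12.2 CPM in hot water bath nuclei. It was present in all 3 Crh-rich nuclei of each library, and in 11 of 108 Crh-free SNI with brush nuclei and 17 of 197 Crh-free hot water bath nuclei.

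The other 6 of the highest 8 were Asb4, an adaptor of a ubiquitin ligase, with log2 ratios of 3.39 in the SNI with brush and 4.25 in the hot water bath library, Itga8, an integrin subunit, with 2.97 and 3.40, and Prdm6, a transcriptional regulator, with 2.94 and 3.05. Ecel1, an endopeptidase-like enzyme of neurons, had 2.88 in SNI with brush and 2.72 in hot water bath nuclei. Abca1, a cholesterol exporter, had 2.71 and 2.53, and Mctp2, a membrane protein with C2 domains, had 2.33 and 3.22. These genes were ranked on the 3 nuclei per library, so nuclei with fewer Crh UMIs were read separately. They were 4 SNI with brush and 21 hot water bath glutamatergic nuclei with 3 to 9 Crh UMIs, set against the same Crh-free nuclei. In those hot water bath nuclei 7 of the 8 were at least 1.5-fold higher; Calcr stood at 142 against 12.2 CPM and Asb4 at 51.7 against 3.58 CPM. In the 4 SNI with brush nuclei 3 of the 8 were, namely Myo3b, Asb4 and Itga8, while Calcr and Prdm6 had 0 UMIs there. Counts were small, since Myo3b had 3 UMIs, all in 1 nucleus, Asb4 had 6 in 2 nuclei and Itga8 had 4 in 2. Those 3 were at least 1.5-fold higher in both libraries, where 2.73% of all genes were higher and 2.68% lower. The share of all genes past this limit in a single library was not counted, so the counts of 7 and 3 have no baseline. Genes also qualified by 50 UMIs over all glutamatergic nuclei, those with 3 to 9 Crh UMIs included. In the SNI with brush library Itga8 had 50 UMIs in all and 36 in Crh-free nuclei, and Asb4 51 and 33. For these genes the separate reading was thus not independent of the choice, and 2.73% is not an even baseline. Limits of 3 and of 20 Crh UMIs, whose groups share nuclei with the main one, gave 3.09% and 9.87% of genes higher and 3.07% and 6.53% lower.

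**Figure D3:**
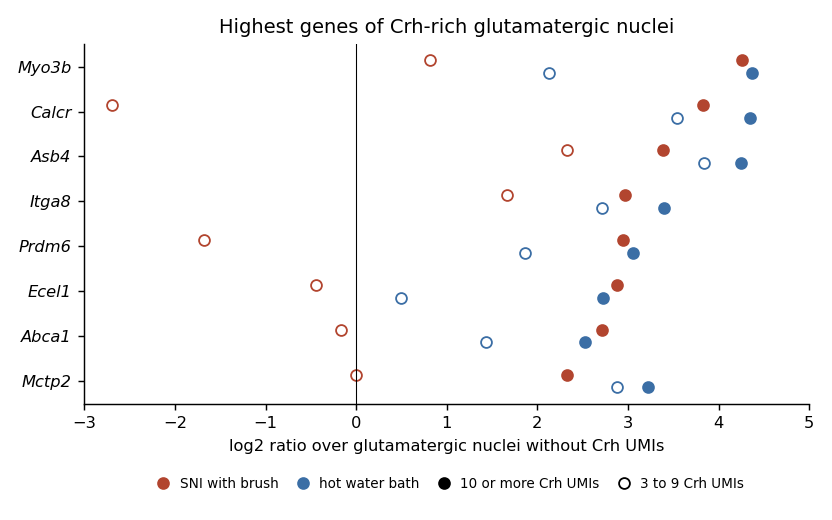
Log2 ratio (horizontal axis) of the 8 highest genes in glutamatergic nuclei with 10 or more Crh UMIs (filled) and 3 to 9 (open) over glutamatergic nuclei with none, in SNI with brush and hot water bath nuclei. The genes were chosen on the filled points, so that these lie above 0 was fixed by the choice; the open hot water bath points lie above 0, and the open SNI with brush points, from 4 nuclei, lie on both sides, at -2.69 for Calcr with 0 UMIs.

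At the low end, several genes were undetected in the Crh-rich nuclei. Zfpm2, a transcriptional cofactor, had 0 UMIs in the 3 Crh-rich nuclei of each library, against 221 CPM in Crh-free SNI with brush nuclei and 120 CPM in Crh-free hot water bath nuclei, which is at least 10.8-fold and at least 3.76-fold lower (3 counts over the group taken as the floor). Nfia, a transcription factor, was likewise at 0, at least 8.80-fold lower in SNI with brush and at least 3.49-fold lower in hot water bath nuclei. Kcnmb2, a potassium channel subunit, Col25a1, a transmembrane collagen, and Fras1, an extracellular matrix protein, were also at 0 in both. Adarb2, an adenosine deaminase-like RNA-binding protein, stood at 34.3 CPM in Crh-rich against 369 CPM in Crh-free SNI with brush nuclei, and at 32.1 against 587 CPM in hot water bath nuclei. Arpp21 and Ryr3 completed the lowest 8. In the nuclei with 3 to 9 Crh UMIs, 4 of these 8 were at least 1.5-fold lower in SNI with brush and all 8 in hot water bath nuclei. That makes 4 lower in both libraries, where 2.68% of all genes were. The share of all genes lower in a single library was not counted. Zfpm2 had 222 CPM in those SNI with brush nuclei against 221 CPM in Crh-free ones, and Nfia 222 against 181 CPM, so neither was lower there. Of the 8 lowest genes, 2 were also among the 8 lowest when the limit was 3 Crh UMIs, and of the 8 highest, 4.

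Ucn, the other ligand, was almost absent except for 1 nucleus. It had 26 UMIs in the SNI with brush library (2.41 CPM) and 2 in the hot water bath library (0.124 CPM), a log2 ratio of 3.99 (2.29 to 7.40). Of the 26 UMIs, 20 lay in 1 nucleus with 39324 UMIs, and without the highest nucleus of each library the ratio was 2.70 (0.13 to 8.69). That nucleus held 360 UMIs of Cartpt, the CART peptide precursor, whereas the next highest neuronal nucleus of its library held 20 and the highest of the hot water bath library 19. It had 1 Slc32a1 UMI and none of the other transmitter genes used, so it had no class. Ucn and Cartpt are known together from the Edinger-Westphal region of the midbrain, which lies outside the stated dissection; where this nucleus came from was not tested. The other 6 Ucn nuclei of the SNI with brush library and both of the hot water bath library held 1 UMI each, and both hot water bath nuclei also held a Crhbp UMI.

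Crhbp, the secreted binding protein, sat in different nuclei in the libraries. Inhibitory nuclei held 77.8% of its 54 UMIs in the SNI with brush library, and glutamatergic nuclei 63.7% of its 91 UMIs in the hot water bath library. In glutamatergic nuclei the level was 1.42 CPM (0.614 to 2.80) for SNI with brush and 5.75 CPM (4.37 to 7.44) for the hot water bath, a log2 ratio of -1.94 (-3.29 to -0.94), where 8.68% of genes were at least 1.5-fold lower. In inhibitory nuclei it was 11.4 CPM (8.22 to 15.4) for SNI with brush and 9.32 CPM (5.69 to 14.4) for the hot water bath, a log2 ratio of 0.27 (-0.51 to 1.14). This ratio was -2.42 (-4.59 to -0.92) in nuclei with a Y-linked UMI, and 1.43 (0.33 to 2.91) with 10 transmitter UMIs and at most 10% from glutamate transporters. The glutamatergic over inhibitory log2 ratio was accordingly -2.93 (-4.31 to -1.90) in the SNI with brush library, where 9.71% of genes were at least 1.5-fold lower, and -0.72 (-1.45 to 0.12) in the hot water bath library, with 11.1% of genes lower. The hot water bath ratio turned to 1.54 (0.44 to 3.04) with 10 transmitter UMIs and 90% or 10% of one kind.

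The glutamatergic Crhbp of the hot water bath library came almost entirely from 1 small cluster. This cluster, led by Adarb2, Tspan18, Ebf2 and Cartpt, held 9 hot water bath nuclei and no SNI with brush nucleus. All 9 nuclei held Crhbp, with 2, 3, 3, 5, 6, 7, 8, 8 and 9 UMIs, which is 51 of the 91 UMIs of the library and 146 CPM (109 to 192). The 242 hot water bath glutamatergic nuclei outside it held 7 UMIs (0.719 CPM, 0.289 to 1.48). Without the cluster, the glutamatergic log2 ratio between the libraries was 0.97 (-0.67 to 2.68), from 8 and 7 UMIs, so the sign of the difference turned. Over all neuronal nuclei the ratio was -0.16 (-0.68 to 0.33) with the cluster and 0.98 (0.37 to 1.61) without it.

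A second group of Crhbp nuclei formed the cluster led by Gcg, the glucagon precursor gene, with Sulf1 and Prlr. Both SNI with brush nuclei of this cluster held Crhbp, at 2 UMIs each, and 12 of 28 hot water bath nuclei did (42.9%, 24.5 to 62.8%), with 1 to 5 UMIs. These nuclei were inhibitory or had mixed transmitter UMIs. In all, 8 of 104 SNI with brush inhibitory nuclei (7.69%, 3.38 to 14.6%) held 42 Crhbp UMIs and 9 of 60 hot water bath ones (15%, 7.10 to 26.6%) held 20. Outside the Gcg cluster these were 7 of 103 SNI with brush inhibitory nuclei with 40 UMIs (10.9 CPM), 1 of them with 13, and 2 of 46 hot water bath ones with 6 UMIs (3.54 CPM). The inhibitory log2 ratio without the Gcg cluster was 1.53 (0.38 to 3.15).

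Crhr1, the main receptor, was the most widely detected member. It was found in 114 of 270 SNI with brush neuronal nuclei (42.2%, 36.3 to 48.4%) and 156 of 422 hot water bath ones (37.0%, 32.3 to 41.8%), and at 9000 UMIs per nucleus in 17.4% and 13.0%. Its 3 highest nuclei held 15.8% of its UMIs in the SNI with brush library and 9.43% in the hot water bath library. Glutamatergic nuclei had 36.8 CPM (31.9 to 42.2) for SNI with brush and 19.9 CPM (17.3 to 22.9) for the hot water bath. Inhibitory nuclei had 14.9 CPM (11.2 to 19.4) for SNI with brush and 8.39 CPM (4.97 to 13.3) for the hot water bath. The glutamatergic level was the higher one in both, with log2 ratios over inhibitory nuclei of 1.29 (0.87 to 1.76) in the SNI with brush library and 1.21 (0.55 to 2.03) in the hot water bath library.

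Summed by class, Crhr1 was higher in the SNI with brush library, but the classes are made of different clusters in the libraries and the difference was not found within every cluster. Over all neuronal nuclei it stood at 27.1 CPM in SNI with brush and 16.4 CPM in hot water bath nuclei, a log2 ratio of 0.72 (0.48 to 0.97). The ratio was 0.88 (0.60 to 1.17) in glutamatergic nuclei and 0.81 (0.04 to 1.69) in inhibitory nuclei. Many other genes were higher too: at least 1.5-fold higher were 30.0% of 17534 genes over all neuronal nuclei, 26.8% in glutamatergic and 31.3% in inhibitory nuclei (8.35% were lower there), so passing this limit does not set Crhr1 apart. When size factors in place of total UMIs scaled the libraries, Crhr1 was at 0.50 (0.25 to 0.74) over all neuronal, 0.71 (0.42 to 0.99) in glutamatergic and 0.55 (-0.21 to 1.44) in inhibitory nuclei. It was 0.82 (0.55 to 1.10) over neuronal nuclei with at most 0.5% mitochondrial UMIs and 0.73 (0.48 to 0.98) without nuclei with 10 or more liver UMIs. The inhibitory interval also included 0 with transmitter UMIs of one kind only (0.28, -0.57 to 1.24), with 10 transmitter UMIs and at most 10% from glutamate transporters (0.53, -0.24 to 1.42) and with classes by cluster (0.30, -0.58 to 1.30).

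Of SNI with brush glutamatergic nuclei 72.1% lay in the clusters led by Slc17a7, by Aox3 and by Dqx1, against 12.4% of hot water bath ones. The Gcg cluster, in which Crhr1 was at 0, held 1 of 104 SNI with brush and 14 of 60 hot water bath inhibitory nuclei; without it the inhibitory ratio was 0.47 (-0.29 to 1.35). Of these inhibitory nuclei, 73 SNI with brush and 20 hot water bath ones had 3 or more Slc6a5 UMIs. In those, Crhr1 stood at 16.6 CPM (12.3 to 22.0) in SNI with brush and 13.3 CPM (6.38 to 24.5) in hot water bath nuclei. With fewer Slc6a5 UMIs it stood at 8.14 CPM (2.99 to 17.7) and 5.74 CPM (2.48 to 11.3), so the intervals overlapped in both. Of 6 clusters with at least 7 nuclei in each library, Crhr1 was higher in SNI with brush nuclei in 3 and lower in 3, and 2 intervals excluded 0. These 2 were the Aox3 cluster, with 20.7 CPM in SNI with brush and 5.70 CPM in hot water bath nuclei (1.70, 0.41 to 3.79), and the Dqx1 cluster, with 31.4 and 18.9 CPM (0.71, 0.02 to 1.53). Both clusters mix glutamatergic and inhibitory nuclei, and the part of this mix in their ratios was not tested. The lower ones were the Slc17a7 cluster (-0.20, -0.81 to 0.45), the Cyp26b1 cluster (-0.47, -1.71 to 0.65) and the Creb5 cluster (-0.04, -1.43 to 1.04).

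The highest Crhr1 levels were in glutamatergic nuclei that express Slc17a7, the vesicular glutamate transporter VGLUT1, a split chosen after values were seen. With 3 or more Slc17a7 UMIs the level was 82.6 CPM (64.4 to 104) in 19 SNI with brush nuclei and 92.8 CPM (62.6 to 133) in 6 hot water bath nuclei. With fewer it was 28.7 CPM (24.1 to 33.9) in 103 SNI with brush nuclei and 17.5 CPM in 245 hot water bath nuclei. The cluster led by Slc17a7 and Col27a1 had Crhr1 in 15 of 20 SNI with brush nuclei and 6 of 7 hot water bath nuclei. Among glutamatergic nuclei with fewer than 3 Slc17a7 UMIs the SNI with brush over hot water bath log2 ratio was 0.71 (0.38 to 1.04), though these nuclei too lay in different clusters in the libraries. Of 12004 genes compared, 1, Phldb2, a membrane-associated microtubule-anchoring protein, had a level per nucleus that correlated with that of Crhr1 at 0.3 or above in both libraries (Pearson r of 0.31 over 270 SNI with brush nuclei and 0.30 over 422 hot water bath nuclei). These nuclei share a library, and such a value in sparse counts is a description only.

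**Figure D4:**
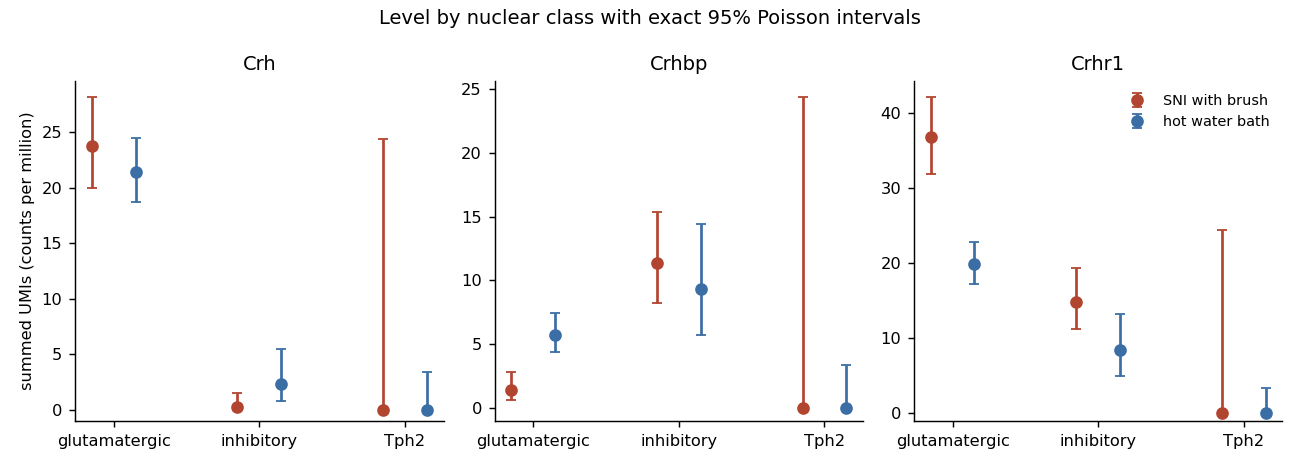
Summed level in CPM (vertical axes, separate for each gene) of Crh, Crhbp and Crhr1 in glutamatergic, inhibitory and Tph2 nuclei, with exact 95% Poisson intervals and SNI with brush left of the hot water bath. Crh and Crhr1 were higher in glutamatergic than in inhibitory nuclei of both libraries, Crhbp was higher in inhibitory nuclei (under stricter class rules not in the hot water bath library), and the wide SNI with brush Tph2 intervals come from 3 nuclei.

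In some groups of neurons no Crhr1 transcript was detected. None of the 3 SNI with brush and 26 hot water bath Tph2 nuclei held a Crhr1 UMI. At this depth the exact interval of 0 counts reaches 24.4 CPM in the SNI with brush and 3.37 CPM in the hot water bath library. None held Crh, Ucn or Crhbp either. Crhr1 was at 0 in both SNI with brush nuclei of the Gcg cluster and in all 28 of its hot water bath nuclei (interval of the 28 up to 3.78 CPM). It was also at 0 in the 9 nuclei of the Adarb2 and Cartpt cluster (up to 10.6 CPM), so the nuclei that carried most hot water bath Crhbp held no Crhr1 transcript. Over all neuronal nuclei of the SNI with brush library, Crhr1 was found in 5 of 15 with Crhbp (33.3%, 11.8 to 61.6%), against 109 of 255 without it (42.7%, 36.6 to 49.1%), and the intervals overlapped widely. In the hot water bath library it was found in 6 of 33 with Crhbp (18.2%, 6.98 to 35.5%), against 150 of 389 without it (38.6%, 33.7 to 43.6%). Depth moved with this split, in opposite directions in the libraries. Medians were 58000 UMIs in SNI with brush nuclei with Crhbp and 32791 in those without, against 31071 and 37427 in hot water bath nuclei. With Crhr1 thinned to equal depth, the hot water bath shares were 6.06% (0.743 to 20.2%) with Crhbp and 13.6% (10.4 to 17.4%) without. The thinned SNI with brush shares were 0% (0 to 21.8%) with Crhbp and 18.4% (13.9 to 23.7%) without. After thinning, the intervals overlapped in both libraries.

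Crhr2, the other receptor, was barely detected. It had 4 UMIs in 3 SNI with brush neuronal nuclei, of which 2 were glutamatergic and 1 was a Tph2 nucleus. Among 422 hot water bath nuclei it had none, with an interval up to 0.228 CPM. The 16 liver-gene nuclei held 2 further Crhr2 UMIs and none of the other members.

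Crh and its receptor were often found in the same glutamatergic nucleus. In the SNI with brush library Crhr1 was detected in 11 of 14 glutamatergic nuclei with Crh (78.6%, 49.2 to 95.3%), against 54 of 108 without Crh (50%, 40.2 to 59.8%). In the hot water bath library it was detected in 34 of 54 with Crh (63.0%, 48.7 to 75.7%), against 79 of 197 without Crh (40.1%, 33.2 to 47.3%). Depth moved with this split in the SNI with brush library, with medians of 47142 UMIs in nuclei with Crh and 35760 in nuclei without, but not in the same direction in the hot water bath library, with 34500 and 39878. With Crhr1 thinned to 9000 UMIs per nucleus, the SNI with brush shares were 21.4% (4.66 to 50.8%) with Crh and 21.3% (14 to 30.2%) without, and the hot water bath shares 25.9% (15 to 39.7%) and 11.7% (7.55 to 17%). Thus no difference was detectable at equal depth in the SNI with brush library, where only 14 such nuclei were available. The CPM of Crhr1 was 34.2 (22.2 to 50.6) with Crh and 37.2 (32 to 43) without in SNI with brush nuclei, and 29.7 (22.6 to 38.3) and 17.5 (14.8 to 20.7) in hot water bath nuclei.

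**Figure D5:**
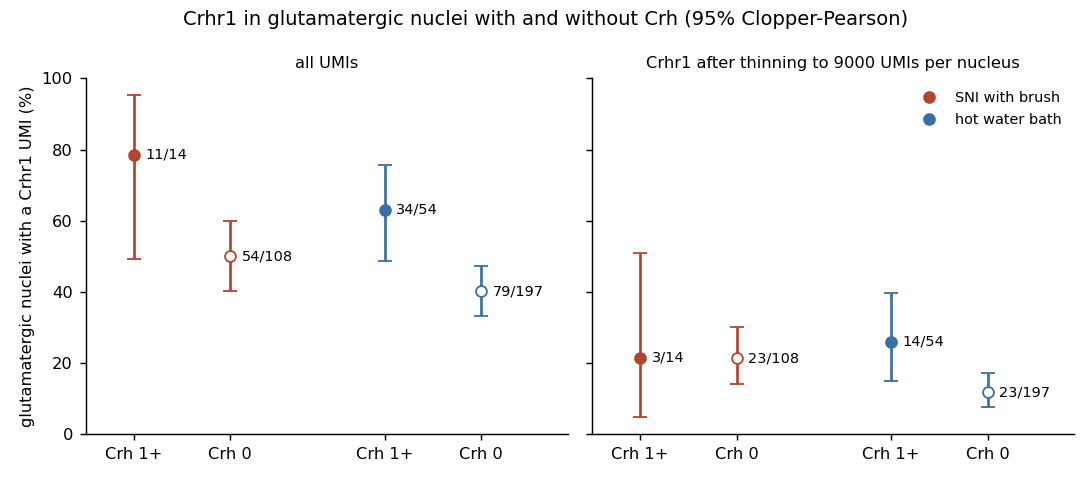
Percentage of glutamatergic nuclei with a Crhr1 UMI (vertical axis) among nuclei with Crh (filled) and without Crh (open), for SNI with brush and the hot water bath, from all UMIs and after thinning Crhr1 to 9000 UMIs per nucleus; bars are 95% Clopper-Pearson intervals and fractions give nuclei. After thinning, the SNI with brush shares were 21.4% and 21.3%, and the hot water bath shares 25.9% and 11.7%.

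Within the 3 Crh clusters of the hot water bath library, the pattern was similar in size but less precise. Glutamatergic nuclei of these clusters had Crhr1 at 32.8 CPM (24.8 to 42.5) where Crh was detected, in 48 nuclei, and at 18.3 CPM (11.7 to 27.2) where it was not, in 36 nuclei. Other hot water bath glutamatergic nuclei without Crh had 17.4 CPM (14.4 to 20.8). Outside these clusters the direction was the other, since the 6 nuclei with Crh had 8.08 CPM (0.979 to 29.2). Crhr1 was detected in 2 of those 6, and the interval is wide. In the SNI with brush library only 8 glutamatergic nuclei lay in these clusters, which gives no usable split.

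Few nuclei held all the components of the system. A ligand and a receptor transcript were found together in 16 of 270 SNI with brush neuronal nuclei (5.93%) and 46 of 422 hot water bath ones (10.9%). A ligand with the binding protein was found in 1 SNI with brush and 6 hot water bath nuclei, and all 3 kinds in 0 SNI with brush and 3 hot water bath nuclei. Among glutamatergic nuclei, Crhbp was detected in 0 of 14 SNI with brush nuclei with Crh and 4 of 108 without, and in 3 of 54 hot water bath nuclei with Crh (5.56%, 1.16 to 15.4%) and 12 of 197 without (6.09%, 3.19 to 10.4%). None of the 5 genes was detected in 137 SNI with brush nuclei (50.7%) and 213 hot water bath nuclei (50.5%).

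Genes that act downstream of the receptor showed no common direction between the libraries. Of 20 genes for Gs and cyclic AMP signalling, 3 were at least 1.5-fold higher and 1 was lower in SNI with brush neuronal nuclei, against 30.0% and 8.37% of all genes, with a median log2 ratio of -0.03 against 0.23 over all genes. In glutamatergic nuclei the counts were likewise 3 and 1, where 26.8% of all genes were higher and 8.68% lower. In inhibitory nuclei they were 5 and 0, where 31.3% and 8.35% of all genes were. The 3 higher over all neuronal nuclei were Rapgef3, a cyclic AMP-activated exchange factor (1.72, 0.99 to 2.54), the protein kinase A catalytic subunit Prkaca (0.87) and its regulatory subunit Prkar1a (0.79). The lower one there was the adenylyl cyclase Adcy2 (-0.71, -0.78 to -0.64). Gnas, which encodes the Gs alpha subunit, stood at 800 CPM in SNI with brush and 802 CPM in hot water bath nuclei. The 8 symbols listed for receptor desensitisation stand for 6 genes, since older names were listed too. Of the 6, all measured, 3 were at least 1.5-fold higher, where 30.0% of all genes were: the arrestin Arrb2 (0.94, 0.68 to 1.22) and the receptor kinases Grk2 (0.86) and Grk3 (0.61). The median of the 6 was 0.37 in glutamatergic and 0.39 in all neuronal nuclei. Of 12 genes for peptide processing and dense-core vesicles, 1 was higher and 1 lower over all neuronal nuclei, where 30.0% and 8.37% of all genes were. The higher one was Pcsk1n, an inhibitor of prohormone convertase 1 (1.21, 1.14 to 1.28), and the lower one Pcsk1, that convertase (-0.63, -0.80 to -0.46). The other 10 were within 1.5-fold. The classes differed from the sum over all neuronal nuclei. In inhibitory nuclei 5 of the 12 were higher and 3 lower, where 31.3% and 8.35% of all genes were, with Pcsk1 at -2.64, the convertase Pcsk2 at 1.73 and the amidating enzyme Pam at -1.27. The inhibitory nuclei differed in make-up, with 1 of 104 SNI with brush and 14 of 60 hot water bath ones in the Gcg cluster. Their median of Slc6a5 was 6 UMIs in SNI with brush and 0 in hot water bath nuclei. The part of this make-up in the ratios was not tested. In glutamatergic nuclei 1 was higher and none lower, where 26.8% and 8.68% of all genes were, with Pcsk1 at -0.10. Ucn2, a CRH-R2 ligand, had 4 UMIs in SNI with brush and 3 in hot water bath nuclei.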

How the data were processed

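For each sample the authors deposited whole-number UMI counts by gene and nucleus, with gene and barcode lists, and these counts were not altered. Cell Ranger 5.0, Seurat and mm10 are named in the submitters' processing notes. How the authors went from 850 and 723 listed barcodes to 288 SNI with brush and 425 hot water bath nuclei is not given in the sources used. These tables hold 11298755 and 16344606 UMIs.

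A filter at 500 genes and 5% mitochondrial UMIs took out no nucleus. Scrublet per library removed 2 SNI with brush and 3 hot water bath doublets. Clusters (Leiden, resolution 1.0, 30 components, 15 neighbours, 2000 variable genes centred within library, scanpy 1.11.5) were built without the 5 members. UMIs were summed per library and class, with exact Poisson intervals for CPM, Clopper-Pearson intervals for shares, and log2 ratios with 0.5 UMI added and exact conditional intervals. A gene needed 20 UMIs over both groups of a ratio to count in the background shares. With 1 library per treatment, p-values were not computed. Nuclei with other transmitter mixes (23 SNI with brush, 33 hot water bath) or fewer than 3 transmitter UMIs (18 and 52) count only among all neuronal nuclei. Within 10 percentage points of the class limit lay 23 SNI with brush and 23 hot water bath glutamatergic nuclei, and 5 and 6 inhibitory ones.

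Members and gene lists were chosen with earlier results of these data known. Named genes were the 5 members, genes correlated with a member at 0.3 or above in both libraries where it was detected in 20 nuclei of each (only Crhr1 qualified), the 8 highest and 8 lowest in Crh-rich nuclei, and at most 4 per pathway list by size of ratio. Gnas and Ucn2, the Slc17a7 split, the group with 3 to 9 Crh UMIs and clusters described for a member were chosen after values were seen. Sequences come from GENCODE vM21 transcripts, as the last codons of the longest open reading frame. The interval code was tested on simulated data.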

Additional observations from a re-analysis of the deposited data

Results flagged for a closer look

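Crhbp differed in direction between the transmitter classes: the log2 ratio, SNI with brush over hot water bath, was -1.94 in glutamatergic and 0.27 in inhibitory nuclei. The difference was not tested, since each treatment has 1 library, and the inhibitory interval (-0.51 to 1.14) includes 0. The inhibitory ratio was -2.42 (-4.59 to -0.92) in nuclei with a Y-linked UMI, and 1.43 and 1.62 with stricter classes and with classes by cluster. The Gcg cluster holds 1 of 104 SNI with brush and 14 of 60 hot water bath inhibitory nuclei, and without it the ratio was 1.53. The 9 hot water bath nuclei of the Adarb2 and Cartpt cluster move with it: without them the glutamatergic ratio was 0.97.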

How the results depend on the processing

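No paired analysis was possible because each treatment has 1 library, which also means that no replicate could be left out. Of 139 alternative log2 ratios, 116 stayed within the interval of the reported value and 22 moved outside it, and 1 ratio whose interval excluded 0 turned in sign; the cause was not tested. That ratio was glutamatergic Crhbp without the Adarb2 and Cartpt cluster (0.97), where Crhbp over all neuronal nuclei was 0.98; leaving out that cluster, the Slc17a7 cluster, the Gcg cluster (inhibitory Crhbp 1.53), Slc17a7 nuclei or nuclei with liver UMIs was chosen after seeing the data. Without the highest nucleus of each library, Crh was -0.67 over all neuronal and -0.27 in glutamatergic nuclei. In nuclei with a Y-linked UMI, the ratio between libraries was -0.30 for glutamatergic Crh, -1.09 for Crhbp over all neuronal, -0.63 in glutamatergic and -2.42 in inhibitory nuclei, and 2.26 for inhibitory Crhr1. Glutamatergic over inhibitory ratios there were -0.27 (SNI with brush) and -2.06 (hot water bath) for Crhbp and 2.55 (hot water bath) for Crhr1. With 10 transmitter UMIs and 90% or 10% of one kind, glutamatergic Crh was 1.27 and inhibitory Crhbp 1.43 between libraries; with classes by cluster these were 1.19 and 1.62. In the hot water bath library, Crh in glutamatergic over inhibitory nuclei was 1.90 with transmitter UMIs of one kind only, 0.76 with the 90% rule and 0.87 by cluster, and Crhbp was 0.20, 1.54 and 0.59. At 3 or more Crh UMIs, 319 genes were higher and 317 lower, and with 3 to 9 (added after seeing the data) 282 and 277, against 1001 and 722 at 10 or more. No other alternative moved a ratio of Crhr1 or Ucn outside its interval. Of 72 alternative shares of nuclei 18 moved, most of them with thinning depth or a limit of 2 UMIs, and of 40 co-detection shares 8 moved, most of them with thinning. Depth limits Ucn, Crhr2, the Tph2 class of the SNI with brush library and its 14 Crh nuclei.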
